A study of Rattus norvegicus with 18 samples.

Results

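Translation initiation factors were examined in clone #4S2, a clonal line of rat INS-1 insulinoma cells in which doxycycline switches on a GFP fusion of proinsulin with the C96Y change, a mutant known to misfold. The genes are those whose symbols in the array annotation start with Eif1 to Eif6, leaving out the Eif2ak kinases and keeping the Eif4ebp inhibitors. Of 49 such genes, 45 had a probe set assigned to 1 gene, out of 14218 genes on the array that did, and for each gene the brightest such probe set was taken. The other 4 (Eif3e, Eif3el1, Eif5 and Eif5-ps1) were covered by probe sets shared between genes and were not used. Cells were kept without doxycycline or given 2 µg/ml of it, and RNA was taken after 24 h, after 48 h and after 5 days. Affymetrix Rat Genome 230 2.0 arrays were used, 1 for each of 3 independent experiments in these 6 groups, 18 in all. Untreated and treated cells are the same clone and carry the same inducible insert, the only difference between them being the drug. The line is 1 clone, and parental INS-1 cells given doxycycline were not analysed here.

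Initiation brings the initiator tRNA to the start codon of an mRNA. The small ribosomal subunit, held open by eIF1, eIF1A and eIF3, receives the tRNA from eIF2, is loaded at the mRNA cap by the eIF4F complex and scans to the start codon, where eIF2 leaves bound to GDP, which eIF2B then exchanges for GTP. During endoplasmic reticulum (ER) stress the kinase PERK phosphorylates eIF2α, which blocks eIF2B, lowers protein synthesis and raises translation of the transcription factor ATF4. In the β-cell, where proinsulin is a large share of the proteins made, this brake is known to protect against misfolded insulin. The arrays measure mRNA, and neither eIF2α phosphorylation nor protein synthesis was measured on them.

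Of the 45 genes, 43 lay in the brighter part of the array and were tested. Eif4ebp1 and Eif2s3y were too dim. All 10 β-cell marker genes with a probe set lay in the tested part, while 0 of 5 acinar and 0 of 5 fibroblast markers did. The summed marker signal ranged from 54.3 to 126 in untreated and 65.4 to 108 in treated cells for acinar genes and from 71.9 to 132 and 66.9 to 201 for fibroblast genes. Of 3 markers of other islet cells with a probe set 1 was in that part, and their sum ranged from 95.6 to 2444 in untreated and 190 to 1200 in treated cells. Part of the 5-day data went against its labels. Sdf2l1, an ER chaperone partner, was higher with doxycycline in 8 pairs of arrays, by 1.66 to 3.18 on the log2 scale, and had a log2 ratio of -2.91 in experiment 1 at 5 days. Over all tested probe sets the ratios of that pair correlated at -0.31 to -0.45 with the pairs of 24 h and 48 h. The library labelled doxycycline at 5 days in experiment 2 stood apart in the ratio of its GAPDH 3′ to 5′ signals, which was 2.91 there and 1.05 to 1.19 on the other arrays. Member counts at 5 days are therefore given as labelled and with the labels of experiment 1 exchanged, and Eif1a also without each pair.

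Most initiation factor mRNAs stayed within a narrow range, and the gene that stood highest at both early times was Eif1a, which encodes eIF1A, the factor that works with eIF1 in scanning and start codon choice. Its signal at 24 h was 1326, 1679 and 1603 in untreated cells of experiments 1 to 3 and 2362, 2519 and 2464 in treated cells. At 48 h it was 1736, 1563 and 1767 in untreated and 2590, 2432 and 2743 in treated cells. At both times the 3 treated arrays lay above all 3 untreated ones. The treated to untreated ratio was 1.61 ± 0.15 (SD, n = 3) at 24 h and 1.53 ± 0.04 (SD, n = 3) at 48 h. Eif1a rose at 48 h by 0.62 on the log2 scale, with a standard error (SE) of 0.07 and an adjusted p of 0.0269 by limma with Benjamini-Hochberg adjustment over all 15521 tested probe sets. At 24 h its log2 fold change was 0.68 (SE 0.08) and its limma adjusted p of 0.061 missed the threshold of 0.05. A limma fit of the 12 arrays of both times gave an adjusted p of 0.0103. A limma fit of all 18 arrays gave 0.9999 as labelled and 0.093 with the labels of experiment 1 at 5 days exchanged. The change between the times was -0.06 (SE 0.10, limma adjusted p = 0.930). In these RNA samples from whole cultures, fewer cells of a type and less RNA per cell cannot be told apart.

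**Figure D1:**
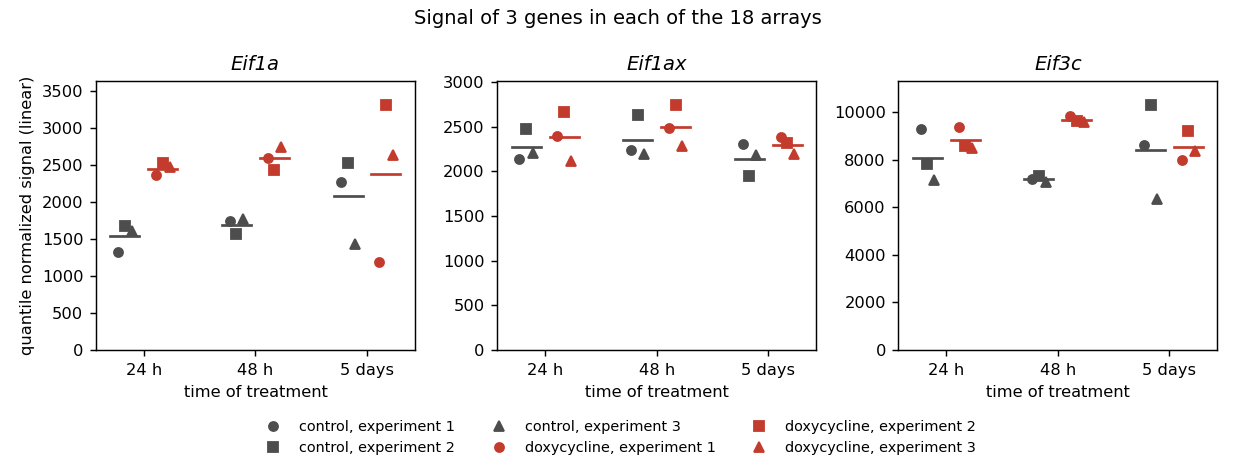
Quantile normalized signal, on a linear axis from 0, of Eif1a, Eif1ax and Eif3c in each of the 18 arrays, by time of treatment. Grey marks are untreated and red marks doxycycline-treated cells, the marks of experiment 1 are circles, of experiment 2 squares and of experiment 3 triangles, and bars are the means of 3 arrays. Treated and untreated Eif1a signals do not overlap at 24 h and 48 h (1326 to 1679 against 2362 to 2519 at 24 h), those of Eif3c do not overlap at 48 h, and those of Eif1ax overlap at each time.

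Eif1a was read by 4 probe sets, and all of them were higher in treated cells at both early times. At 48 h their log2 fold changes were 0.62, 0.76, 0.71 and 0.69, and each passed the test, with limma adjusted p-values of 0.0269, 0.0254, 0.0402 and 0.0432. The 24 h values of 0.68, 0.58, 0.63 and 0.49 had limma adjusted p-values of 0.061, 0.0945, 0.0601 and 0.154, none under the threshold. All 12 ratios of treated to untreated arrays were above 0 at 24 h, from 0.34 to 0.83 on the log2 scale, and all 12 at 48 h, from 0.46 to 0.95. The call at 48 h was lost with any 1 of the 3 experiments left out. The log2 fold change of the brightest probe set was then 0.61 to 0.64 and its limma adjusted p 0.120 to 0.144. Those fits called 0, 29 and 17 probe sets as higher without experiments 1, 2 and 3, against 361 with all 3. The lost call thus does not show that Eif1a rests on 1 experiment.

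**Figure D2:**
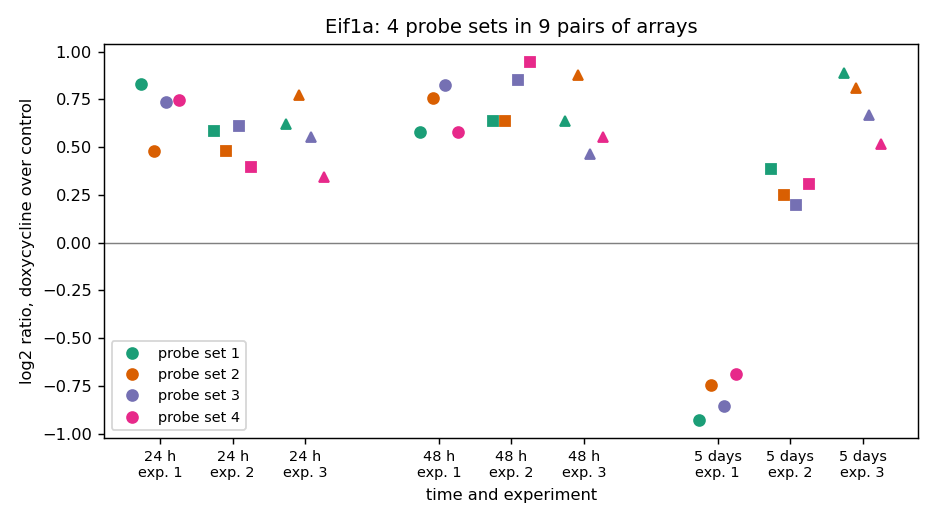
Log2 ratio of doxycycline-treated over untreated cells for the 4 probe sets of Eif1a (colours) in each pair of arrays, 3 experiments per time. All 12 ratios lie above 0 at 24 h and all 12 at 48 h, whereas at 5 days those of experiment 1 lie at or below -0.69 and the other 8 lie above 0.

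The X-linked paralog Eif1ax, which also encodes an eIF1A, did not pass the test at any time. Its signal at 48 h was 2243, 2630 and 2198 in untreated and 2483, 2739 and 2286 in treated cells, and the groups overlapped. Its log2 fold change was 0.07 (SE 0.08) at 24 h and 0.09 (SE 0.07) at 48 h, with limma adjusted p-values of 0.726 and 0.502. The difference between the paralogs was not itself tested, and the probe sequences were not used here, so whether the probe sets of one gene also read the other was not tested. The other members of the group, Eif1b, which encodes a second eIF1, and Eif1ad, which encodes a protein with an eIF1A domain, gave log2 fold changes of -0.05 and 0.14 at 48 h and did not pass.

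The promoters of the paralogs are shown because 1 of the genes rose and the other did not pass. Those of Eif2s2 and Eif3a are shown because they hold the only matches among the members to elements known from ER stress. Each stretch is the 250 bases before the annotated start of the gene in RefSeq, on the gene's strand, in build GRCr8. The positions are chr18:41512048-41512297 on the plus strand for Eif1a, chrX:39322024-39322273 on the minus strand for Eif1ax, chr3:163855571-163855820 on the minus strand for Eif2s2 and chr1:269919026-269919275 on the minus strand for Eif3a. Capitals mark the match.
Eif1a: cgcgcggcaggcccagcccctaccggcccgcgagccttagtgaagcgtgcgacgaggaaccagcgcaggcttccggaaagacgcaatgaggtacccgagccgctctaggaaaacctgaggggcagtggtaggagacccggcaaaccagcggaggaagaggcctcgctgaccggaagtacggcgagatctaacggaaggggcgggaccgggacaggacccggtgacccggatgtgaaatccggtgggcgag
Eif1ax: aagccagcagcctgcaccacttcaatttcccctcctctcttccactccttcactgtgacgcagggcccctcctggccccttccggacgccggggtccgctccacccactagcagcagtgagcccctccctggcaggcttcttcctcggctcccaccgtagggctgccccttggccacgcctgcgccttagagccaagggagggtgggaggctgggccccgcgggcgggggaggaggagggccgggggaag
Eif2s2: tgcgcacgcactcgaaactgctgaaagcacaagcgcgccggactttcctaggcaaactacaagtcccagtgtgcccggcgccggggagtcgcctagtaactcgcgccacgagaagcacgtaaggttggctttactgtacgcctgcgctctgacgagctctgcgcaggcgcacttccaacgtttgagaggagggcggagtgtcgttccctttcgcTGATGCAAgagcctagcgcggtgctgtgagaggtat
Eif3a: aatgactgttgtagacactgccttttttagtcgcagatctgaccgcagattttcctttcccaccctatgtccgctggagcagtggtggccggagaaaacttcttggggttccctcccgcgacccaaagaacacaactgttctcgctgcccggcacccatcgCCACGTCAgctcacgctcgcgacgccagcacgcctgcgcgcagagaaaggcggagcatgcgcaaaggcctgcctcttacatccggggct
Searched on both strands were CARE (TGATGNAA), the element read by ATF4 and C/EBP factors, UPRE (TGACGTGG), an element of XBP1, and ERSE and ERSE-II, elements of ATF6. The last 3 share the letters CCACG or their complement, so that their matches can overlap. CARE was found in 3.27% of 27457 promoters and in 1 of the 41 members with a promoter, Eif2s2. UPRE was found in 0.55% of promoters and in 1 member, Eif3a. ERSE and ERSE-II were found in 0.0765% and 0.0437% of promoters and in 0 members. Neither paralog held a match, with a GC content of 66.4% for Eif1a and 70% for Eif1ax. A match is a description of letters in this window and not of a bound site.

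Eif3c was the only other member that passed. It encodes a core subunit of eIF3, the largest initiation factor, which holds the small subunit and recruits the other factors. At 48 h its signal was 7186, 7324 and 7055 in untreated and 9835, 9637 and 9587 in treated cells. The groups stood apart with little spread within either, and the ratio was 1.35 ± 0.03 (SD, n = 3). It rose by 0.43 on the log2 scale (SE 0.07, limma adjusted p = 0.0486). At 24 h the untreated signals of 9305, 7846 and 7137 overlapped the treated ones of 9388, 8575 and 8485, with a log2 fold change of 0.13 (SE 0.08, limma adjusted p = 0.507). The change from 24 h to 48 h was 0.30 (SE 0.10), with an unadjusted p of 0.018 and a limma adjusted p of 0.707. A second, dimmer probe set of Eif3c gave log2 ratios of 0.25, 0.01 and 0.67 at 48 h and an adjusted p of 0.26. The call lies at the threshold. Without 1 experiment its limma adjusted p was 0.155 to 0.180, and without the pairs as a block it was 0.0585. The fits without 1 experiment called only 0 to 29 of all tested probe sets as higher.

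The remaining eIF3 subunits shifted little. On their brightest probe sets all 11 subunit genes had a log2 fold change above 0 at 48 h, as did 47.6% of all tested probe sets and 65.1% of the members. These ran from 0.01 for Eif3i to 0.43 for Eif3c with a median of 0.12, and 1 of the 11 passed. In 6 of the 11 all 3 pairs were higher at 48 h. The dimmer probe set of Eif3k had a mean log2 ratio of -0.10 at 48 h. At 24 h 7 of 11 were above 0, with a median of 0.03. Eif3j, a loosely held subunit near the mRNA channel, had signals of 3273, 3076 and 3155 in untreated and 4115, 3721 and 3661 in treated cells at 48 h. Eif3a, the largest subunit, had 2463, 2688 and 2385 and then 2899, 2979 and 2994. In both the groups did not overlap, and their log2 fold changes of 0.27 and 0.24 had limma adjusted p-values of 0.106 and 0.150. On their dimmer probe sets the mean log2 ratio was 0.21 for Eif3j, again without overlap, and 0.07 for Eif3a, with overlap.

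**Figure D3:**
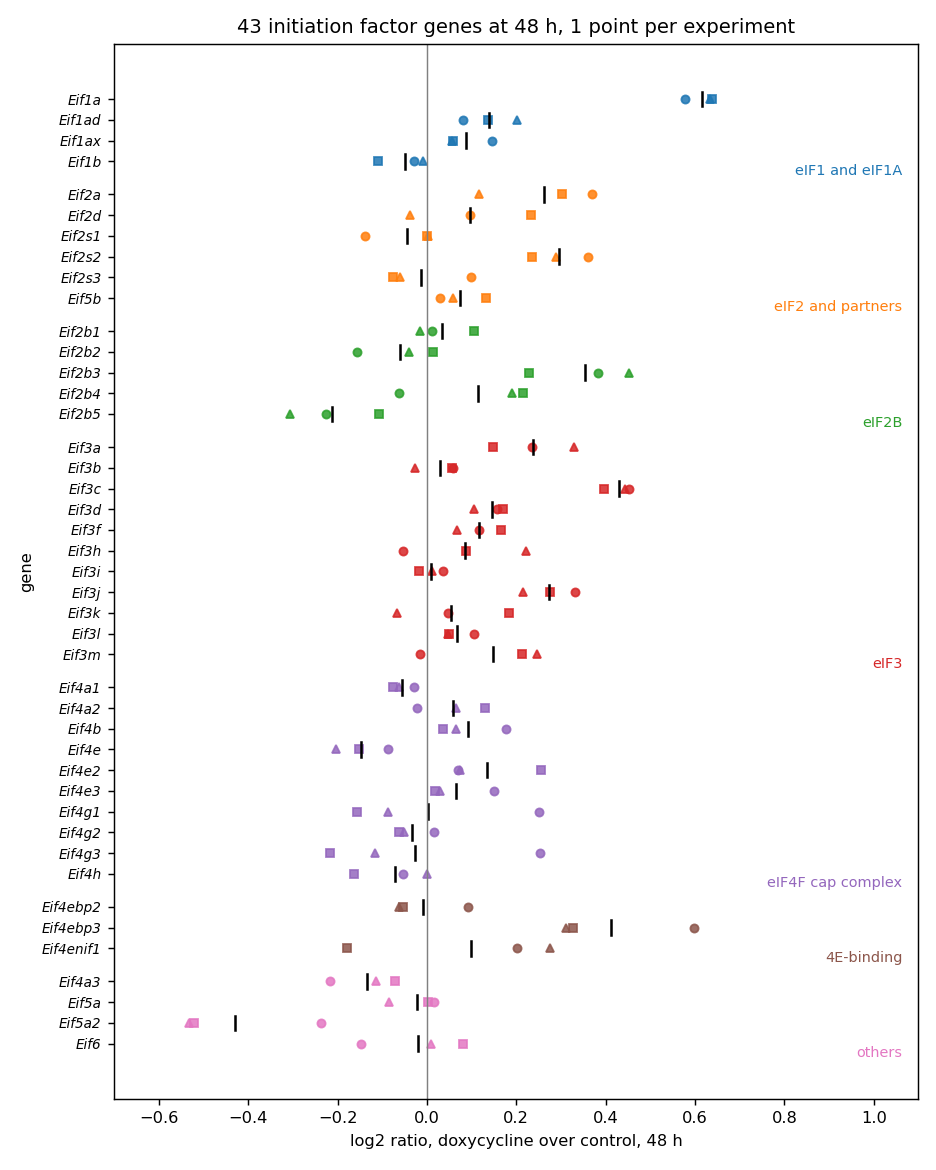
Log2 ratio of doxycycline-treated over untreated cells at 48 h for the 43 tested initiation factor genes, ordered by role. Experiment 1 is drawn as circles, experiment 2 as squares and experiment 3 as triangles, and black bars are the means. The means of Eif1a and Eif3c lie farthest to the right, each with its points close together. The mean of Eif4ebp3 follows at 0.41, with points from 0.31 to 0.60. The eIF3 means all lie above 0, and the mean of Eif5a2 lies farthest to the left at -0.43.

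The eIF2 genes, which encode the complex that PERK acts on, gave no call. Eif2s1, which encodes eIF2α itself, had signals at 48 h of 2212, 2022 and 1946 in untreated and 2009, 2021 and 1951 in treated cells, and a log2 fold change of -0.05 (SE 0.08, limma adjusted p = 0.754). Eif2s3, for eIF2γ, gave -0.01 (SE 0.08). Eif2s2, for eIF2β, had 6918, 7209 and 7209 in untreated and 8882, 8485 and 8807 in treated cells. The Eif2s2 groups did not overlap, while those of Eif2s1 did. Its log2 fold change of 0.29 (SE 0.07) had a limma adjusted p of 0.0946, and its log2 fold change at 24 h was 0.15 (SE 0.08). Eif2a, which encodes eIF2A, a separate initiator tRNA binding protein and not the α subunit, had treated signals above the untreated ones at both times. Its log2 fold change was 0.29 (SE 0.08) at 24 h and 0.26 (SE 0.08) at 48 h, with limma adjusted p-values of 0.205 and 0.149. Eif2d and Eif5b, which encode a tRNA loading factor and the factor for joining of the large subunit, gave 0.10 and 0.07 at 48 h.

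Among the 5 genes of eIF2B, the exchange factor that phosphorylated eIF2 blocks, 0 passed. Eif2b3, for the γ subunit, had signals of 1053, 1095 and 932 in untreated and 1373, 1283 and 1275 in treated cells, at 48 h, a log2 fold change of 0.35 (SE 0.08, limma adjusted p = 0.0842). Eif2b5, for the catalytic ε subunit, had 646, 622 and 646 in untreated and 553, 578 and 522 in treated cells, a log2 fold change of -0.21 (SE 0.08, limma adjusted p = 0.185). Treated and untreated signals did not overlap in either, with Eif2b3 higher and Eif2b5 lower after treatment. On the dimmer probe set of Eif2b5 they did overlap at 48 h. It had 279, 306 and 230 in untreated and 236, 180 and 312 in treated cells, with a mean log2 ratio of -0.19. Eif2b1, Eif2b2 and Eif2b4 lay between -0.06 and 0.11.

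The eIF4F genes, for the cap-binding protein eIF4E, the scaffold eIF4G, the helicase eIF4A and its helpers, showed small differences on their brightest probe sets. All 10 lay between -0.15 and 0.13 at 48 h and between -0.06 and 0.10 at 24 h, and 0 passed. The tested probe sets of Eif4g1, for the scaffold, disagreed at 48 h, with log2 fold changes of 0.00, -0.39 and -0.66 from the brightest to the dimmest and limma adjusted p-values of 0.992, 0.0637 and 0.134. On the second of them the signals were 722, 604 and 657 in untreated and 528, 485 and 499 in treated cells, which did not overlap. A second probe set of Eif4e3, for an eIF4E relative, gave -0.26 (limma adjusted p = 0.282) where the brightest gave 0.07. The 4E-binding genes, for repressors that keep eIF4E from eIF4G, gave no call either. Eif4ebp3 had signals at 48 h of 588, 768 and 709 in untreated and 890, 963 and 880 in treated cells, which did not overlap. Its log2 ratios were 0.60, 0.33 and 0.31, its log2 fold change was 0.41 (SE 0.09, limma adjusted p = 0.0793), and at 24 h it was 0.14 (SE 0.07). Eif4ebp2 gave -0.01 (SE 0.08) at 48 h. Eif4ebp1, known in β-cells as a target of ATF4, had signals of only 50 to 160.2 over the 18 arrays, with a mean log2 signal of 6.48 under the filter of 6.93, and was not tested. Its log2 ratios were -0.73, -1.12 and 0.45 at 24 h and -0.69, 0.28 and 1.04 at 48 h. They had no common sign, so these arrays give no direction for Eif4ebp1.

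Eif5a2, which encodes an isoform of the hypusinated factor eIF5A, had the lowest log2 fold change of the tested members at 48 h. Its signals were 1204, 1373 and 1262 in untreated and 1021, 957 and 873 in treated cells, with no overlap. The log2 fold change was -0.43 (SE 0.09, limma adjusted p = 0.0762), and at 24 h it was -0.24 (SE 0.08, limma adjusted p = 0.269). Eif5a gave -0.02 (SE 0.07) at 48 h. Eif4a3, for the helicase of the exon junction complex, gave -0.13 at both times, and Eif6, for the factor that keeps the large subunit from joining early, gave -0.02 at 48 h.

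Counted over the family, 0 of 43 members passed in either direction at 24 h, when 0.193% of all tested probe sets were higher and 0.0129% lower. Before adjustment limma gave 3 members higher and 1 lower at p under 0.05, against 7.75% and 6.94% of all probe sets. At 48 h 2 members (4.65%) passed as higher and 0 as lower, against 2.33% and 1.19%. The count of 2 is too small to set the family apart. Unadjusted, 8 were higher and 2 lower at 48 h, against 12.2% and 12.5% of all probe sets. The median log2 fold change of the members was 0.02 at 24 h and 0.07 at 48 h, against -0.01 for all tested probe sets at both times. At 24 h 39 members (90.7%) and at 48 h 33 (76.7%) lay within 0.2 of 0, against 79.4% and 66.1%. Members were read on their brightest probe sets. Their median SE was 0.076 at 24 h and 0.074 at 48 h, against 0.084 and 0.088 for all tested probe sets. The part of this in the narrower range was not tested. On the brightest probe sets no ratio of a tested member reached 2-fold in any experiment at these times, and among their other tested probe sets 1 ratio did, that of the dimmest of Eif4g1 in experiment 2 at 48 h, at -1.19 on the log2 scale. By the study's rule of 2-fold in at least 2 experiments, 0.29% of all tested probe sets were higher and 0.0709% lower at 24 h, and 0.509% and 0.187% at 48 h.

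Directions held across experiments more often upward than downward in this family. All 3 pairs were higher in 13 members at 24 h (30.2%, against 17.8% of all tested probe sets) and in 17 at 48 h (39.5%, against 22.8%). They were lower in 5 (11.6%, against 20.3%) and 6 (14%, against 25.4%). Signals did not overlap and were higher with treatment in 6 members at 24 h (14%, against 5.03%) and 10 at 48 h (23.3%, against 11.3%). They did not overlap and were lower in 3 at each time (6.98%, against 3.72% and 10.8%). The 10 at 48 h were Eif1a, Eif2a, Eif2b3, Eif2s2, Eif3a, Eif3c, Eif3d, Eif3f, Eif3j and Eif4ebp3. These shares are descriptions, since members were not drawn at random and genes of 1 culture are not independent.

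The fit of the 12 arrays of 24 h and 48 h, which pools their spread, called more genes. At 48 h it passed 6 members as higher (14%, against 5.64% of all probe sets) and 1 as lower (2.33%, against 4.73%). Besides Eif1a and Eif3c these were Eif2b3, Eif2s2, Eif3j and Eif4ebp3, with limma adjusted p-values of 0.0284, 0.0458, 0.0380 and 0.0208, and Eif5a2 as the lower one with 0.0238. At 24 h it passed Eif1a alone as higher, against 1.09% of probe sets, and 0 members as lower, against 0.29%. For the difference of the doxycycline effect between 48 h and 24 h 0 members passed, as did 0% of all tested probe sets. The smallest limma adjusted p of a member was 0.707, and 2 had an unadjusted p under 0.05, Eif3c and Eif4ebp3. The share of all tested probe sets under 0.05 was not counted for this difference, so these 2 are not set apart.

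**Figure D4:**
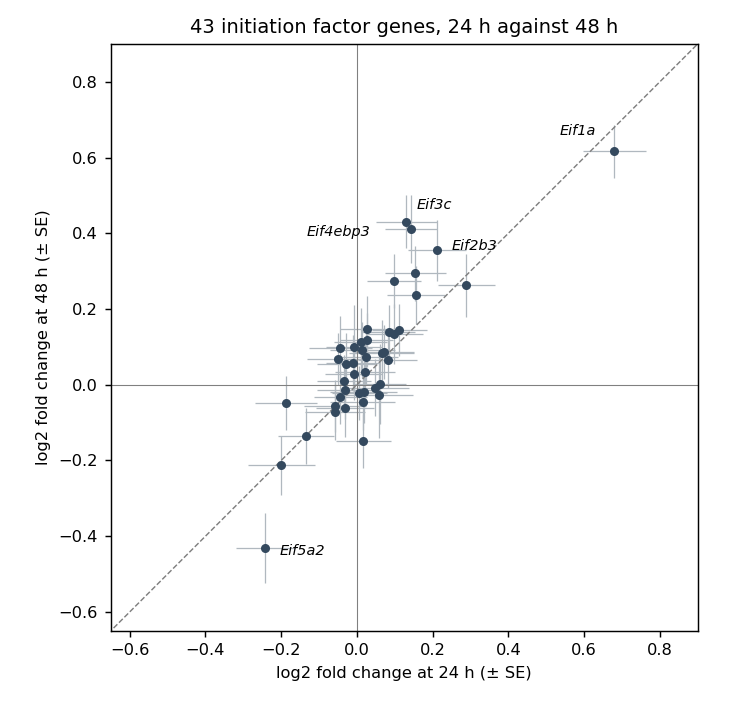
Log2 fold change of doxycycline-treated over untreated cells at 24 h (horizontal) and 48 h (vertical) for the 43 tested initiation factor genes, with standard errors from limma. The dashed line marks equal values at both times, Eif1a lies near it at 0.68 and 0.62, and Eif3c and Eif4ebp3 lie above it.

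At 5 days 0 members passed in either direction, as did 0% of all tested probe sets, and limma gave 0 members before adjustment at p under 0.05, against 1.11% of probe sets higher and 1.37% lower. In 9 members (20.9%, against 13.6%) all 3 pairs were higher and in 1 (2.33%, against 9.84%) lower, all of them resting on the labels of experiment 1. With those labels exchanged the counts turned to 6 higher (14%, against 18.2%) and 9 lower (20.9%, against 14.5%). On the brightest probe sets signals did not overlap in 2 members, Eif4e3 and Eif4g2, both higher (4.65%, against 3.73%), and in 0 that were lower, against 2.76%. With the exchange neither of these 2 stayed apart, and the counts were 2 higher, Eif3a and Eif4enif1 (4.65%, against 6.54%), and 3 lower, Eif2b4, Eif5a and Eif5a2 (6.98%, against 4.48%). The second probe set of Eif4e3 went the other way as labelled, lower without overlap. It had 1194, 1051 and 981 in the libraries labelled untreated and 963, 548 and 704 in those labelled doxycycline. Eif4e3 thus had no clear direction at 5 days. On the other tested probe sets of Eif4g2 the groups overlapped, as labelled. By the rule of 2-fold in at least 2 experiments 0 members were counted, against 0.296% of probe sets higher and 0.438% lower, and 0 with the exchange, against 0.541% and 0.438%. Eif1a had signals of 2264, 2528 and 1426 in the libraries labelled untreated and 1190, 3299 and 2636 in those labelled doxycycline. Its log2 ratios were -0.93, 0.38 and 0.89, so the pair that opposed the others was the one in which Sdf2l1 was also reversed. The 4 probe sets of Eif1a were all lower in that pair and all higher in the other 2. With the labels of experiment 1 exchanged, Eif1a had a mean log2 ratio of 0.73. It then passed in a fit of all 18 arrays (limma adjusted p = 0.0171), together with Eif3a (0.41, adjusted p = 0.0480), when 1.83% of probe sets were higher and 0.908% lower. At 48 h the same fit passed Eif1a alone (limma adjusted p = 0.0462), against 0.979% of probe sets higher and 0.271% lower. The dimmer probe set of Eif3a did not follow the brighter one at 5 days. As labelled its mean log2 ratio was -0.55, against 0.22 on the brighter. With the exchange the dimmer one was higher in experiment 1 (310 treated, 242 untreated). It was lower in experiment 2 (138 and 314) and experiment 3 (165 and 176). In the 5-day arrays alone 0 members passed with the exchange, and before adjustment 2 were higher, Eif1a and Eif3a, and 0 lower, against 3.81% and 2.27% of probe sets. As labelled, the log2 fold change of Eif1a at 5 days was 0.11 (SE 0.38), and it was 0.64 without experiment 1, -0.02 without experiment 2 and -0.27 without experiment 3.

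Experiment 2 at 5 days gave the widest ratios. Eif4g1, for the eIF4G scaffold, had 2524 in the untreated and 392 in the treated library, Eif5a had 12119 and 2375, and Eif4a1, for eIF4A, had 11963 and 4742. Their log2 ratios were -2.69, -2.35 and -1.33, and in experiments 1 and 3 these genes stayed between -0.13 and 0.09. On the brightest probe sets no tested member passed 2-fold in any other pair. Probe sets of 1 gene gave different values in this pair. For Eif4h, an eIF4A helper, the log2 ratio was -0.16 on the brighter and -5.50 on the dimmer probe set, and for Eif3c it was -0.16 and -3.18. Among the 16 members with more than 1 tested probe set, the highest and lowest mean log2 ratio lay a median of 0.11 apart at 24 h and 0.12 at 48 h, but 0.41 at 5 days. The raised 3′ to 5′ ratio of GAPDH belongs to the treated library of this pair, and its part in these values was not tested. For the difference of the effect between 5 days and 48 h 0 members passed, as did 0% of probe sets. The smallest limma adjusted p for a member was 0.425, and 3 had an unadjusted p under 0.05. The share of all tested probe sets under 0.05 was not counted here either.

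**Figure D5:**
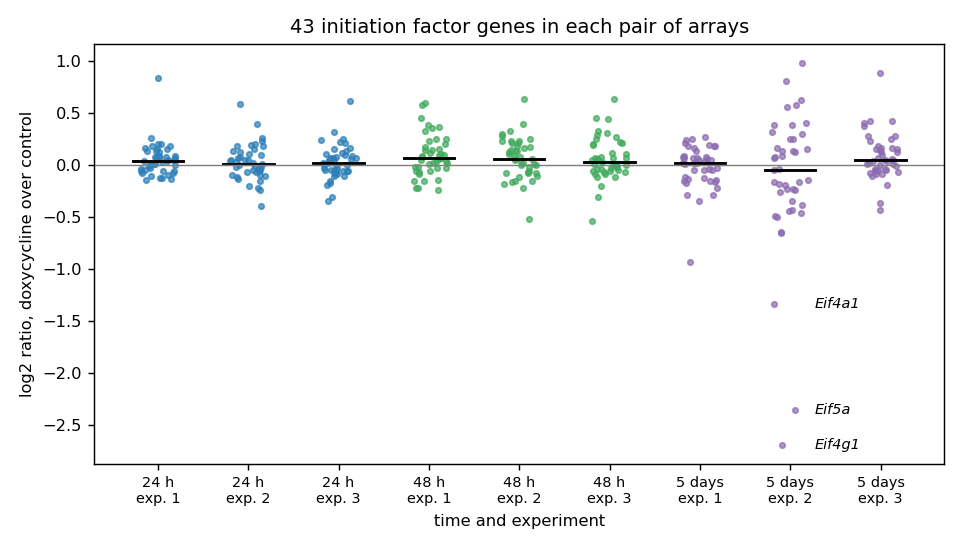
Log2 ratios of doxycycline-treated over untreated cells for the 43 tested initiation factor genes in each of the 9 pairs of arrays, with the median of the members as a black bar. The 3 named genes, Eif4a1, Eif5a and Eif4g1, are the only ones past 2-fold in any pair, and all are in experiment 2 at 5 days. The lowest point of experiment 1 at 5 days is Eif1a at -0.93.

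Of 25 genes of the eIF2 and ATF4 arm, among them several that the study picked from these arrays, 14 passed as higher and 0 as lower at 48 h, against 2.33% and 1.19% of all tested probe sets, with a median log2 fold change of 0.64. The count was 0 without experiment 1, 7 without experiment 2 and 5 without experiment 3. Over all tested probe sets, 0 were higher and 0 lower at 48 h without experiment 1. There were 29 and 7 without experiment 2, and 17 and 6 without experiment 3. The arm count of 0 thus came from a fit that called no probe set, and does not show that the arm rests on experiment 1. Of the 4 eIF2α kinase genes only Eif2ak3, which encodes PERK, passed (0.94, limma adjusted p = 0.0242), and Eif2ak1, Eif2ak2 and Eif2ak4 gave 0.08, -0.11 and 0.04. The 4 with the largest change were Trib3 at 3.85, a pseudokinase induced by CHOP, Chac1 at 2.32, a glutathione-degrading enzyme, Ddit3 at 1.76, which encodes CHOP, and Psat1 at 1.64, an enzyme of serine synthesis. At 24 h 1 passed as higher and 0 as lower, against 0.193% and 0.0129% of all tested probe sets. It was Dnajc3 (1.08, limma adjusted p = 0.0237), which encodes the ER co-chaperone P58IPK and was named after its value was seen. Before adjustment limma gave 13 arm genes higher and 0 lower at 24 h, against 7.75% and 6.94% of probe sets. The median log2 fold change of the arm at 24 h was 0.33. At 5 days 0 passed, adjusted or not. With the labels of experiment 1 exchanged, 0 passed in the 5-day arrays alone, 2 were higher before adjustment, and the median went from -0.11 to 0.22. Of 29 partners and regulators of initiation, such as poly(A)-binding proteins and mTOR complex genes, 25 were tested and 0 passed at any time as labelled. Their medians were -0.01, -0.05 and 0.01 in the order of the times, and at 48 h the largest changes were 0.39 for Pabpc4, a poly(A)-binding protein, 0.34 for Paip2b, its inhibitor, 0.33 for Gigyf2 and -0.31 for Mknk2, an eIF4E kinase. Before adjustment limma gave 2 higher and 1 lower at 24 h, 5 and 3 at 48 h and 0 at 5 days, against 7.75% and 6.94% of all probe sets at 24 h and 12.2% and 12.5% at 48 h. A list of elongation and termination factors had 24 tested genes. It also held mitochondrial factors, among them the initiation factor gene Mtif2, and modifying enzymes such as Dhps. Of these 24 genes 0 passed at any time as labelled, with medians of -0.01, 0.06 and 0.00. The largest changes at 48 h were 0.43 for Pelo, a ribosome rescue factor, 0.34 for Tsfm, -0.26 for Eef2k, the kinase of elongation factor eEF2, and -0.19 for Gspt2, a termination factor, and the unadjusted counts were 0 higher and 3 lower at 24 h, 2 and 1 at 48 h and 0 at 5 days, against those same shares. With the exchange at 5 days the medians of both lists were 0.05 and 0.01 and 0 genes passed in those arrays alone.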

How the data were processed

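RNA of 18 cultures was hybridized to 1-colour arrays. What the authors deposited are intensities on a linear scale, with array means (2% trimmed) of 500.14 to 500.17, so they had been scaled. Which program made them is not given in the sources used. Samples were grouped by their labels, and same-numbered arrays, which the study treats as 1 experiment, were paired. As a check, the 2 arrays of each pair deviated together from their groups, with correlations of 0.109 to 0.667 in the 9 pairs. No 2 of the 18 arrays were identical in 153 comparisons.

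After 57 control probe sets were left out, the intensities were quantile normalized, floored at the 10th percentile (5.99) and log2 transformed. The upper 50 percent of 31042 probe sets by mean log2 signal (at least 6.93) were tested, 15521 in all. The 6 arrays of 1 time were fitted in limma (version 3.58.1, under R 4.3.3) with the pair as a block, and p-values were two-sided and adjusted by Benjamini-Hochberg at 0.05. Differences between times came from fits of 12 or 18 arrays. The array annotation names 1 gene for 20826 probe sets, several for 436 and none for 9780. All 45 members matched RefSeq genes. Array number limits the precision.

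Members and lists were chosen with earlier results of these data known. Genes named by rule were those that passed, the Eif4ebp and Eif2s genes, members with a mean log2 ratio of 0.4 or more in size and 1 sign in 3 pairs, and 4 genes per list. Other members were named after their values were seen. Alternatives were the normalization, floor, filter, block, samples in the fit, labels at 5 days, probe set and the methods' t-test. Member counts at 5 days with exchanged labels were added after seeing the data.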

Additional observations from a re-analysis of the deposited data

Results flagged for a closer look

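Eif4g2 encodes an eIF4G relative without the eIF4E binding site. On its brightest probe set it was lower with doxycycline in 3 of 3 pairs at 24 h. It was higher in 3 of 3 pairs at 5 days, as labelled. The mean log2 ratio was -0.04 at 24 h and 0.12 at 5 days, a distance of 0.16. The difference was not tested, and the 5-day value includes the pair of experiment 1 that went against its labels in Sdf2l1. With the labels of that pair exchanged its log2 ratio is -0.08 and the mean at 5 days is 0.07, so the 3 pairs no longer share 1 sign. The other tested probe sets of Eif4g2 had no common sign in the 3 pairs at either time, as labelled. Over its 3 probe sets the mean log2 ratio ran from -0.04 to 0.02 at 24 h and from -0.04 to 0.12 at 5 days.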

How the results depend on the processing

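Calls in this family depended on the fit. At 48 h the 2 members higher became 1 with arrays centred on the median, without the replicate block, with the labels of experiment 1 at 5 days exchanged in 18 arrays, and with the next brightest probe set of each gene. They became 0 without the filter on dim probe sets and with all 18 arrays, 6 in the fit of 12 arrays, and 10 by the methods' t-test unadjusted. Leaving out any 1 replicate gave 0 members higher at 48 h. Members lower at 48 h were 1 in the fit of 12 arrays and 3 by the unadjusted t-test. At 24 h the members higher were 1 with median centring, 1 in the fit of 12 arrays and 5 by the unadjusted t-test, which also gave 1 lower. At 5 days 2 were higher with exchanged labels in 18 arrays and 1 by the unadjusted t-test. Of all 15521 probe sets that t-test gave 486 as higher and 293 as lower at 24 h. It gave 1264 as higher and 1082 as lower at 48 h, while the 5-day counts were 179 and 106. The t-test did not use the pairs. After Benjamini-Hochberg the t-test passed Eif3c and Eif2s2 at 48 h (adjusted p-values of 0.0141 and 0.0487) and gave 0.0706 for Eif1a. Of all 15521 probe sets it then passed 121 as higher and 41 as lower at 48 h. The eIF2 and ATF4 arm had 14 genes higher at 48 h, and 0 to 7 with a replicate left out. Its 1 gene at 24 h became 0 without the replicate block and 0 with any replicate left out, and at 5 days 2 were higher with exchanged labels in 18 arrays. The log2 fold change of Eif1a at 5 days ranged from -0.27 to 0.64 with a replicate left out, at -0.02 without replicate 2 and -0.27 without replicate 3. Over all probe sets, 361 higher and 185 lower at 48 h became 876 and 734 in 12 arrays, 208 and 67 without the replicate block, 152 and 42 with exchanged labels in 18 arrays, 0 and 0 without the filter or in 18 arrays as labelled, and at most 29 and 7 with a replicate left out. At 24 h 30 and 2 became 169 and 45 in 12 arrays, 62 and 10 with median centring, 20 and 0 with exchanged labels, and 0 and 0 without the filter, the block or any replicate. Median centring moved the median log2 fold change of all probe sets at 5 days from 0.03 to 0.24, and 0 members passed there. The other counts, 199 in all, either stayed within 1.5 times of a main value above 0 or were 0 where the main value was 0. Main values above 0 existed only for members higher at 48 h and for arm genes higher at 24 h and 48 h. A count that stayed at 0 is no sign of stability, since several of these fits called 0 probe sets in all.

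Limits: genes of low signal, Eif4ebp1 among them, were not examined. Eif1a, at 0.62 on the log2 scale at 48 h, and members with log2 fold changes of 0.27 to 0.43 passed in some fits and not in others. Each array gives 1 value per probe set, so 3 pairs a time set the precision. A gene that missed it is not shown to be unchanged.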
